A study of Mus musculus with 14 samples.

Results

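Ahnak, p11 and their annexin and S100 partners are described here by 8 genes, which were taken by name from the 39017 gene identifiers of the count table: Ahnak, S100a10, Anxa2, Hltf, Anxa5, Anxa6, S100a11 and S100a6. All 8 were in the table and passed the filter on low counts, which kept 21298 genes. RNA was measured in the hippocampus of male mice of C57BL/6 background, aged 8 to 12 weeks when the experiments began, in which a PV-Cre line was crossed with a Cre-dependent EGFP-L10a line. All 4 groups carried both alleles. Translating ribosome affinity purification (TRAP) pulls down the EGFP-tagged ribosomes together with their RNA, so that the RNA comes mainly from cells that express parvalbumin (PV), a calcium-binding protein of fast-spiking inhibitory interneurons. TRAP RNA was sequenced from 4 non-defeated mouse samples (labelled CTRL), 4 resilient samples (RES) and 3 susceptible samples (STR), and total RNA taken without TRAP from 3 non-defeated samples (CTRL Input) served as input. Chronic social defeat stress (CSDS) exposed the stressed mice to a new CD-1 aggressor on each of 10 days. Mice that then stayed near a caged aggressor counted as resilient and mice that avoided it as susceptible. Non-defeated mice were housed in pairs across a divider and met no aggressor.

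Replicates are named by the number in their sample title, from 1 to 11 in TRAP and from 12 to 14 in input. Library totals were between 72098582 and 94726962 counts in TRAP and between 64110214 and 80063224 in input. As a check of the capture, all 9 PV interneuron markers were higher in TRAP than in input (edgeR adjusted p under 0.05), and all 6 excitatory neuron markers (Slc17a7, Neurod6, Camk2a, Prox1, Calb1 and Rbfox3) were lower. Of these 6, Rbfox3 is known as a general marker of neurons and Calb1 is also made by some interneurons. Markers of other cells went both ways, in a comparison where 55% of all genes tested passed. Of 12 endothelial markers 2 were higher in TRAP, Cldn5 (2.34-fold, edgeR adjusted p = 0.0136) and Ly6c1 (2.24-fold, edgeR adjusted p = 0.00626), and 2 were lower. Of 8 mural markers, Acta2 was higher (4.08-fold, edgeR adjusted p = 9.88e-06) and 1 was lower, and of 7 choroid plexus and ependyma markers 2 were higher, Foxj1 and Ccdc153, and 2 lower. The lists for fibroblasts, microglia, astrocytes, oligodendrocytes and red blood cells had 0 markers higher and 3 to 7 lower. No marker of the other cell types listed was at 0 in every library of a TRAP group. The sources used here do not say whether a library came from 1 mouse, so p-values measure the spread between libraries.

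Ahnak is a very large scaffold protein under the plasma membrane that binds calcium channel subunits and the p11/annexin A2 complex. p11 is the product of S100a10, a member of the S100 family of small calcium-binding proteins, although p11 itself no longer binds calcium. A p11 dimer joins a pair of annexin A2 molecules into a heterotetramer, which carries receptors and ion channels to the cell surface, and p11 is known for changes in mood disorders and in the response to antidepressants. Annexins bind acidic phospholipids when calcium rises. Hltf, a helicase-like chromatin remodeler also known as SMARCA3, is a nuclear partner of the p11/annexin A2 complex.

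Of the 8 genes, 6 had promoter windows in the RefSeq table of the mouse build GRCm38.p6, each reaching from 250 bases before to 50 bases after the transcription start. S100a10 and Anxa6 had none in it. The 3 windows printed here belong to Anxa2, S100a11 and S100a6, because these genes rose and fell together across TRAP libraries. Capitals mark matches, on either strand, to the AP-1 motif TGANTCA, the TATA box TATAAA, the GC box GGGCGG and the CCAAT box, which do not overlap each other in these windows.

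Anxa2 (chr9:69453433-69453732, plus strand): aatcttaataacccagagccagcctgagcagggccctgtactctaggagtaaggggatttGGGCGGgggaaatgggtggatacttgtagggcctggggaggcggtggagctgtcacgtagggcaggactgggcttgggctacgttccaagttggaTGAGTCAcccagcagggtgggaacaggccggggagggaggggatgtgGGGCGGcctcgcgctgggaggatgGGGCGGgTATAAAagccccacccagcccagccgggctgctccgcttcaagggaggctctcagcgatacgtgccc

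S100a11 (chr3:93520246-93520545, plus strand): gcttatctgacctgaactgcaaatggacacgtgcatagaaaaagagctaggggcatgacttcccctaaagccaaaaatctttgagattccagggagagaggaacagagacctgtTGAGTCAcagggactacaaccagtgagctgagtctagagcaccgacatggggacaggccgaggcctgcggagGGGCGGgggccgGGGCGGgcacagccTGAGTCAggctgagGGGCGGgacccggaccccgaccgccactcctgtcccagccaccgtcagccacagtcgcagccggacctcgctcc

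S100a6 (chr3:90612644-90612943, plus strand): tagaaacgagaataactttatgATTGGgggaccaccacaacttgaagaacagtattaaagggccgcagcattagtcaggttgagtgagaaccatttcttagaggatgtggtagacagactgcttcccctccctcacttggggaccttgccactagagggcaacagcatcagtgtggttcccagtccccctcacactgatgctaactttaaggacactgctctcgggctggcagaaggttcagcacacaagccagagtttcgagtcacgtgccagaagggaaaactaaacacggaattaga

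The AP-1 letters TGAGTCA occurred once in the Anxa2 window, 95 bases before the start, and at 2 places in the S100a11 window, 136 and 38 bases before it. A match to TGANTCA occurred in 7.81% of all 32841 windows of the same length. The S100a6 window held no AP-1 match, and neither did the windows of Ahnak, Hltf and Anxa5. Anxa2 and S100a11 also had 3 GC boxes each, a motif of 35.7% of windows, and Anxa2 had a TATA box 17 bases before the start, a motif of 13.6% of windows. S100a6 had only a CCAAT box on the minus strand, 228 bases before the start, and 37.4% of windows hold that motif. Ahnak had 4 GC boxes. The forkhead letters TGTTTAC, found in 3.65% of windows, and the X-box letters GTTGCCATG, found in 0.773%, were in no window of these genes. A match says only that the letters are there.

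The 8 genes differed widely in level. Counts were expressed per 1000000 counts of the TMM-normalized library (normalized CPM), which compares libraries, and, further divided by kilobases of exon (RPKM), which compares genes. In RPKM, Ahnak was the lowest in TRAP libraries of non-defeated mice, at 0.142 ± 0.0212 RPKM (SD, n = 4). Hltf followed at 2.78 ± 0.644 RPKM, Anxa2 at 5.32 ± 1.65 and S100a6 at 9.75 ± 3.08. S100a10 reached 10.9 ± 3.08 RPKM, which overlaps S100a6, and S100a11 29.2 ± 13.6. Anxa6 at 45.3 ± 13.4 and Anxa5 at 59.5 ± 2.94 RPKM were the highest. Ahnak thus rested on 131 to 351 counts per library although its exons span 19938 bases, while Anxa5 rested on 3721 to 12215.

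**Figure D1:**
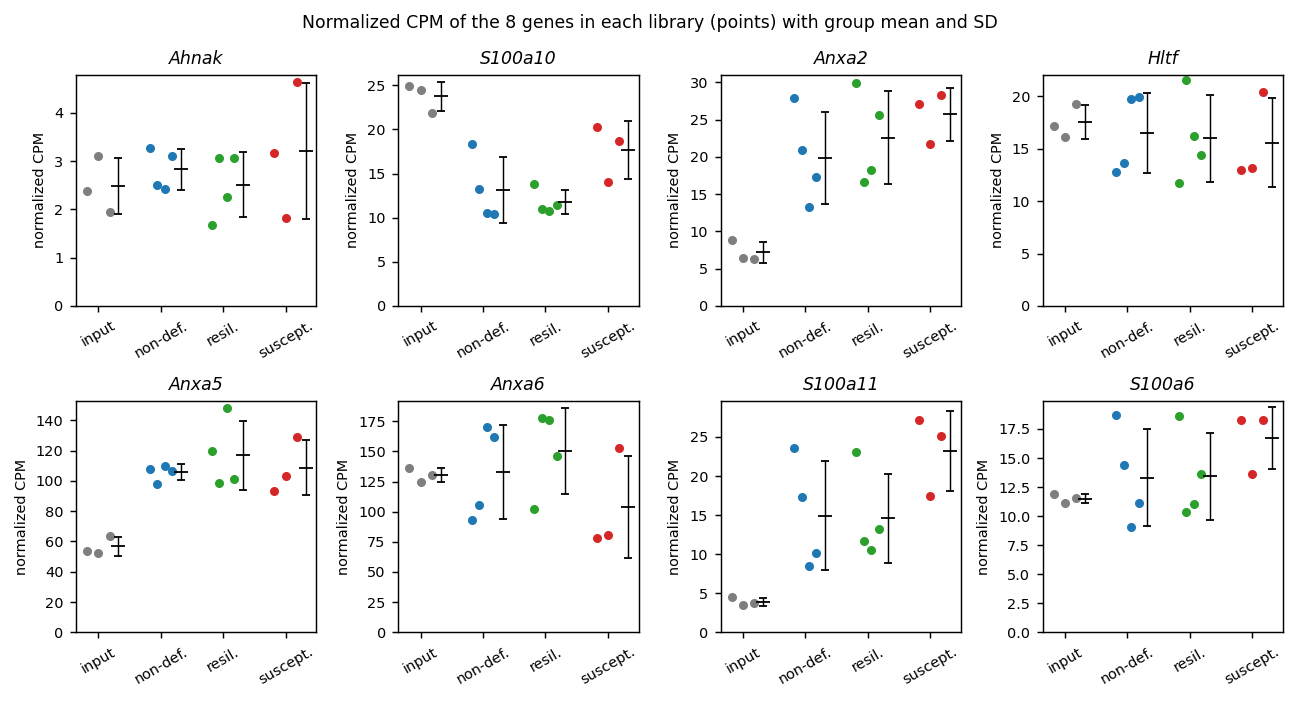
Normalized CPM (vertical axes, starting at 0) of the 8 genes in each of 14 libraries, with points for libraries in the order of their sample numbers and black bars for the group mean and SD. Anxa2, S100a11 and Anxa5 lie higher in every TRAP library of non-defeated mice than in any input library, S100a10 lies lower, and the groups of the other 4 genes overlap. The share of all genes whose groups separate was not counted, and 55% of all genes tested passed an adjusted p of 0.05 in this comparison (edgeR).

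The first comparison asked whether the p11 complex is found in translating RNA of PV neurons more or less than in the whole hippocampus. Between TRAP and input of non-defeated mice, 3 of the 8 genes were higher in TRAP and 1 was lower at an adjusted p under 0.05 (edgeR's quasi-likelihood test, Benjamini-Hochberg over 21298 genes). This comparison is broad, since 55% of all genes tested passed that threshold and 59.9% had an unadjusted p under 0.05. The median log2 fold change of the 8 genes was 0.20, beside -0.04 for all genes.

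S100a10, the p11 gene (ENSMUSG00000041959, plus strand of chromosome 3, 93555080 to 93564643 in mm10), was lower in TRAP. Its normalized CPM in input were 25.0, 24.5 and 21.9 in replicates 12, 13 and 14. In TRAP of non-defeated mice they were 18.4, 13.3, 10.5 and 10.4 in replicates 1, 6, 9 and 11. Every TRAP library of non-defeated mice was below every input library. The mean was 13.2 ± 3.73 CPM (SD, n = 4) in TRAP and 23.8 ± 1.66 (SD, n = 3) in input, a log2 fold change of -0.85 (standard error 0.18, edgeR adjusted p = 0.00127).

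Anxa2, which encodes the annexin that p11 binds (ENSMUSG00000032231, plus strand of chromosome 9, 69453620 to 69491795), went the other way. Input replicates 12, 13 and 14 had 8.85, 6.47 and 6.36 CPM. Non-defeated TRAP replicates 1, 6, 9 and 11 had 27.8, 20.95, 13.3 and 17.3 CPM, all above input. The fold change was 2.75 (log2 1.46, standard error 0.25, edgeR adjusted p = 0.000221), so the p11 and annexin A2 transcripts, whose products form a single complex, moved in opposite directions between TRAP and input. In input S100a10 had a mean of 19.6 RPKM and Anxa2 1.94, and in TRAP 10.9 and 5.32. Anxa2 shares exonic sequence with the antisense gene Gm16144, which had 1 count in all libraries together.

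S100a11, a small S100 protein that binds annexin A1 (ENSMUSG00000027907, plus strand of chromosome 3, 93520488 to 93526287), rose most of the 8. Its input libraries had 4.46, 3.47 and 3.75 CPM in replicates 12, 13 and 14. Its non-defeated TRAP libraries had 23.6, 17.4, 8.52 and 10.2 CPM in replicates 1, 6, 9 and 11. The TRAP libraries spread over a wide range, yet none reached down to input, and the fold was 3.83 (log2 1.94, standard error 0.35, edgeR adjusted p = 0.000324). A processed pseudogene, S100a11-ps, had 51 counts in all libraries and took few of the reads.

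Anxa5, known for binding phosphatidylserine on dying cells (ENSMUSG00000027712, minus strand of chromosome 3, 36448923 to 36475894), had 53.9, 52.7 and 64.0 CPM in input replicates 12, 13 and 14. It had 108, 98.2, 110 and 107 CPM in non-defeated TRAP replicates 1, 6, 9 and 11. It spread least of the 8 in these TRAP libraries and was 1.86-fold higher there (log2 0.90, standard error 0.14, edgeR adjusted p = 0.000105).

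Ahnak itself (ENSMUSG00000069833, plus strand of chromosome 19, 8989284 to 9076914) was not told apart between TRAP and input. Input replicates 12, 13 and 14 had 2.38, 3.1 and 1.95 CPM, and non-defeated TRAP replicates 1, 6, 9 and 11 had 3.28, 2.51, 2.43 and 3.1. The log2 fold change was 0.19 (standard error 0.29, edgeR adjusted p = 0.598), with a 95% interval from -0.43 to 0.82. The groups overlap, and the interval leaves room for a change of either sign.

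The other 3 genes did not pass either. S100a6, the calcium-binding protein calcyclin (ENSMUSG00000001025, plus strand of chromosome 3, 90612882 to 90624181), had 11.1 to 11.9 CPM in input and 9.06 to 18.7 in non-defeated TRAP (log2 0.21, 95% interval -0.29 to 0.71). Anxa6, the annexin with a doubled core (ENSMUSG00000018340, minus strand of chromosome 11, 54979108 to 55033445), had 125.0 to 136 CPM in input and 93.1 to 170.5 in TRAP (log2 0.02, 95% interval -0.54 to 0.58). Hltf (ENSMUSG00000002428, plus strand of chromosome 3, 20057811 to 20118490) had 16.1 to 19.3 CPM in input and 12.8 to 19.9 in TRAP (log2 -0.09, 95% interval -0.56 to 0.39). For S100a6, Anxa6 and Hltf, input libraries lay close together and TRAP libraries spread to both sides of them. Their coefficient of variation was 3.51%, 4.34% and 9.18% in input, and 31.6%, 29.6% and 23.1% in non-defeated TRAP.

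**Figure D2:**
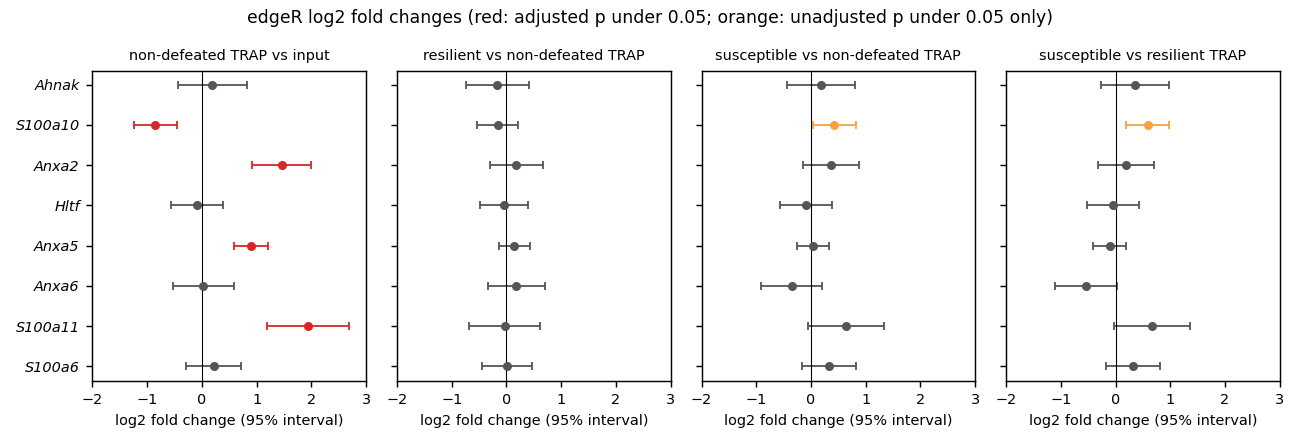
Log2 fold changes (horizontal axes) of the 8 genes in the 4 comparisons, with 95% intervals from the edgeR fit. Points in red pass an adjusted p of 0.05 and occur only in TRAP against input. Orange points, S100a10 in both comparisons with susceptible mice, pass only without adjustment.

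The rest of the annexin and S100 families was read from lists of names. Their counts in TRAP against input stand beside the 55% of all genes tested that passed an adjusted p of 0.05. Of 12 annexins, 10 were tested, and 4 were higher and 2 lower in TRAP than in input. Besides Anxa2 and Anxa5, Anxa8 was 12.5-fold higher (5.28 ± 2.71 CPM in TRAP, SD, n = 4, and 0.418 ± 0.0842 in input, SD, n = 3, edgeR adjusted p = 1.93e-05) and Anxa1, the partner of S100a11, 2.64-fold higher (edgeR adjusted p = 0.00332). Anxa11 and Anxa7 were lower, with log2 fold changes of -0.88 and -0.38. Of 16 S100 genes, 9 were tested, of which S100a11 alone was higher and 5 were lower. The 4 with the largest decrease were S100a16 (log2 -1.80), S100a13 (-1.42), S100a10 and S100a1 (-0.76). The median log2 fold change was 0.20 for annexins and -0.54 for S100 genes, beside -0.04 for all genes.

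Receptors, channels and other proteins linked to p11, with its nuclear partners, made a list of 19 genes, of which 16 were tested. In TRAP 7 were higher and 3 lower. This count and those of the next lists stand beside the 55% of all genes tested that passed. The potassium channel gene Kcnc1, which is also on the list of PV markers, was 7.33-fold higher, the potassium leak channel gene Kcnk3 6.39-fold, the pacemaker channel gene Hcn2 2.5-fold and Dlc1 2.33-fold. The serotonin receptor genes Htr1b (log2 -1.56) and Htr4 (-1.07) and the plasminogen activator gene Plat (-0.65) were lower. The calcium channel subunits that Ahnak binds or sits beside were 6 genes, all tested. The beta subunit gene Cacnb4 was 1.76-fold higher, and Cacnb2 (log2 -1.51), Cacnb3 (-1.30) and Cacnb1 (-1.26) were lower. Of 13 genes of membrane repair and caveolae, 12 were tested, with 4 higher and 3 lower. Chmp4b of the ESCRT machinery (2.13-fold), the small calpain subunit gene Capns1 (1.85-fold), the caveola coat gene Cavin1 (1.69-fold) and the calcium sensor gene Pdcd6 (1.45-fold) were higher. The caveolin genes Cav1 (log2 -1.28) and Cav2 (-0.62) and the calpain gene Capn1 (-0.80) were lower. Both relatives of Ahnak, Ahnak2 and Prx, were tested, and neither passed.

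The next comparisons asked whether the outcome of CSDS went with a change of these genes in TRAP libraries. None of the 8 genes passed an adjusted p of 0.05 in any of the 3 comparisons (edgeR). Between resilient and non-defeated mice, 0 of the 8 also had an unadjusted p under 0.05, where 0% of all genes passed with adjustment and 4.38% without. Between susceptible and non-defeated mice, 1 of the 8 (S100a10) had an unadjusted p under 0.05, where 0.0376% of all genes passed with adjustment and 13.3% without. Between susceptible and resilient mice, 1 of the 8 (again S100a10) did so, where 1.89% passed with adjustment and 20.9% without. The share of 1 in 8 is near the background in both. DESeq2 fitted to the 2 groups also called 0, 0 and 1 with adjustment, the 1 being S100a10 between susceptible and resilient mice (adjusted p = 0.0217). The comparisons of susceptible mice share the susceptible libraries and are not independent.

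Susceptible mice had 20.3, 14.04 and 18.7 CPM of S100a10 in replicates 2, 4 and 10. Resilient mice had 13.9, 10.96, 10.8 and 11.5 CPM in replicates 3, 5, 7 and 8. Each susceptible library was above each resilient library, a separation whose share among all genes was not counted. The closest pair was susceptible replicate 4 and resilient replicate 3, and non-defeated libraries overlapped both groups. The log2 fold change was 0.59 between susceptible and resilient mice (standard error 0.19, unadjusted edgeR p = 0.00668, adjusted p = 0.1), and an exact 2-sided permutation test gave p = 0.0286, the smallest value that 3 against 4 libraries allow. Between susceptible and non-defeated mice it was 0.43 (standard error 0.19, unadjusted edgeR p = 0.0368, adjusted p = 0.349, exact permutation p = 0.114). Sample numbers can stand for an order of handling, which the labels do not explain. Within numbers 1 to 6 the mean of S100a10 on the log2 scale was 0.45 higher in susceptible than in resilient mice, and within 7 to 11, with 1 susceptible library, 0.75 higher. In the order of group means, S100a10 was highest in input and lowest in resilient mice, and only the step from input to susceptible mice separated all libraries of neighbouring groups.

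Ahnak spread most in susceptible mice, with 3.16, 1.83 and 4.65 CPM in replicates 2, 4 and 10. Resilient mice had 1.68, 3.06, 2.25 and 3.07 CPM in replicates 3, 5, 7 and 8. The highest TRAP library and the next to lowest were both susceptible, so the groups overlapped. The log2 fold change between susceptible and resilient mice was 0.35 (standard error 0.29, 95% interval -0.27 to 0.97, edgeR adjusted p = 0.526). Over the fits that left out 1 library it ranged from -0.01, without susceptible replicate 10, to 0.63. Over all 17 alternatives the lowest unadjusted p was 0.0344 and the lowest adjusted p 0.229 (edgeR). Between susceptible and non-defeated mice the log2 fold change was 0.18 (95% interval -0.44 to 0.81), and between resilient and non-defeated mice -0.17 (95% interval -0.75 to 0.41).

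S100a11 had 27.2, 17.5 and 25.2 CPM in susceptible replicates 2, 4 and 10 and 23.0, 11.6, 10.6 and 13.2 CPM in resilient replicates 3, 5, 7 and 8. Resilient replicate 3 alone reached into the susceptible range. The log2 fold change was 0.67 (standard error 0.32, 95% interval -0.02 to 1.37, edgeR adjusted p = 0.253), and it ranged over the fits that left out 1 library from 0.55, without susceptible replicate 2 (edgeR adjusted p = 0.519) or resilient replicate 7 (edgeR adjusted p = 0.445), to 0.98 without resilient replicate 3 (edgeR adjusted p = 0.0895). Anxa6 pointed the other way, with 78.3, 80.4 and 153 CPM in susceptible replicates 2, 4 and 10 and 102 to 178 CPM in resilient mice. Its log2 fold change was -0.54 (standard error 0.26, edgeR adjusted p = 0.263), and it ranged from -0.37 without susceptible replicate 2 (edgeR adjusted p = 0.591) to -0.92 without susceptible replicate 10 (edgeR adjusted p = 0.0514).

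The remaining genes overlapped between stress groups. Anxa2 had 27.1, 21.7 and 28.3 CPM in susceptible replicates 2, 4 and 10 and 16.7 to 29.8 CPM in resilient mice (log2 0.19, 95% interval -0.33 to 0.70). S100a6 had 13.7 to 18.3 CPM in susceptible and 10.4 to 18.6 in resilient mice (log2 0.32, 95% interval -0.18 to 0.82). Anxa5 had 93.6 to 129 CPM in susceptible and 98.6 to 148 in resilient mice (log2 -0.11, 95% interval -0.41 to 0.19). Hltf had 13 to 20.4 CPM in susceptible and 11.7 to 21.5 in resilient mice (log2 -0.04, 95% interval -0.52 to 0.43). The intervals of Anxa5 are the narrowest of the 8 in every stress comparison and run from -0.13 to 0.42 for resilient and from -0.26 to 0.34 for susceptible against non-defeated mice.

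Among the cell markers, only those of red blood cells passed an adjusted p of 0.05 between stress groups (edgeR). Of these 5, 4 were higher in susceptible than in resilient mice, where 1.89% of all genes tested passed. Against non-defeated mice 2 were higher, where 0.0376% of all genes passed. Of the other genes on the annexin, S100, p11, channel, membrane repair and Ahnak lists, 1 passed. It did so between susceptible and resilient mice, and 1 gene over all these lists has to be read beside the 1.89% of all genes. Dlc1, which is known to bind p11, had 9.47, 8.82 and 7.33 CPM in susceptible replicates 2, 4 and 10 and 4.53 to 5.77 CPM in resilient mice, a fold of 1.67 (log2 0.74, standard error 0.17, edgeR adjusted p = 0.048). This call held under 5 of 17 alternatives, whose adjusted p ranged from 0.00338 to 0.181 (edgeR, and DESeq2 for the lowest), and of the 7 fits that each left out 1 library only the fit without susceptible replicate 10 kept it. All 9 S100 genes tested had a positive log2 fold change in susceptible mice, with a median of 0.48 against non-defeated and 0.53 against resilient mice, beside 0.01 and 0.00 for all genes. None passed with adjustment in edgeR, while S100a10 and S100b passed against resilient mice with DESeq2 (adjusted p = 0.0217 and 0.0483). Leaving out susceptible replicate 10 left 8 of 9 positive against resilient mice, S100a16 being the exception. Choroid plexus and ependyma markers had 7 of 7 positive log2 fold changes in both comparisons, with no marker at 0 in every library of a group. Their summed level was 533 to 875 CPM in susceptible, 250 to 441 in non-defeated and 306 to 539 in resilient mice. Between resilient and non-defeated mice these markers were 7 of 7 positive too (median log2 0.46), where 4 of 9 S100 genes were positive (median -0.005). A fit added after the data were seen took the mean of Foxj1 and Ccdc153, genes of ciliated ependymal cells, as a covariate. With it, 8 of the 9 S100 genes were positive in each comparison of susceptible mice and the medians were 0.17 and 0.28. In that fit S100a6 had -0.03 and both S100a10 and S100a11 had 0.17 on the log2 scale in the comparison with non-defeated mice, and the part of ependymal cells in the other S100 values was not tested. S100a13 had the smallest unadjusted p against non-defeated mice (log2 0.57, edgeR p = 0.00556, adjusted p = 0.214, exact permutation p = 0.0857). Among annexins, Anxa4 was the first against both other groups (log2 0.74 and 0.55, edgeR adjusted p = 0.234 and 0.203). Of the calcium channel and membrane repair genes, Cacnb1 (log2 -0.32, edgeR adjusted p = 0.172) and Chmp4b (log2 0.55, edgeR adjusted p = 0.0812) came first between susceptible and resilient mice, and Capns1 (log2 0.35, edgeR adjusted p = 0.246) between susceptible and non-defeated mice. Cav1 had 4.36 ± 1.61 CPM in resilient (SD, n = 4) and 2.07 ± 0.23 in non-defeated mice (SD, n = 4), with every resilient library higher (log2 1.07, unadjusted edgeR p = 0.000156, adjusted p = 1, exact permutation p = 0.0286). Susceptible mice had 2.82 ± 0.16 CPM of Cav1 (SD, n = 3). Endothelial cells are rich in Cav1. The summed level of 12 endothelial markers was 14.3 to 27.2 CPM in non-defeated, 24.1 to 66.0 in resilient and 35.8 to 52.4 in susceptible mice, with no marker at 0 in every library. The part of endothelial cells in the Cav1 values was not tested. In bulk TRAP RNA, more cells of a type and more RNA per cell cannot be told apart.

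Whether the genes varied together was tested over the 11 TRAP libraries, with Pearson's r of log2 CPM and a 2-sided permutation test of 100000 resamples for each of 28 pairs. The share of pairs among all genes that vary together in this way was not computed, so the counts have no background beside them. At a Benjamini-Hochberg adjusted p under 0.05 there were 8 of these 28 pairs, and 11 by Spearman's rho. The p11 gene was in 3 of them, with S100a11 (r = 0.94, rho = 0.98, adjusted permutation p = 0.00028 for both), S100a6 (r = 0.88, rho = 0.82) and its partner Anxa2 (r = 0.77, rho = 0.80, adjusted permutation p = 0.0244 and 0.0167). Anxa2, S100a11 and S100a6 were tied to each other at r = 0.90 to 0.97, the closest pair being S100a11 and S100a6 (r = 0.97, rho = 0.88, adjusted permutation p = 0.00028 and 0.00579). The 4 highest TRAP libraries of Anxa2, S100a11 and S100a6 were non-defeated replicate 1, resilient replicate 3 and susceptible replicates 2 and 10, and the lowest was non-defeated replicate 9. For S100a10, resilient replicate 3 came after susceptible replicate 4, and non-defeated replicate 9 was next to the lowest. The other 2 pairs were Hltf with Anxa6 (r = 0.84, rho = 0.83) and, in opposite directions, Anxa6 with S100a11 (r = -0.75, rho = -0.76, adjusted permutation p = 0.0418 and 0.0274). The 3 pairs that passed by Spearman's rho alone were also in opposite directions, S100a10 with Anxa6 (rho = -0.76, adjusted permutation p = 0.0264), Hltf with S100a6 (rho = -0.74, adjusted permutation p = 0.0331) and Anxa6 with S100a6 (rho = -0.80, adjusted permutation p = 0.0167).

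After the mean of each stress group was subtracted, with libraries permuted within groups, 7 pairs passed, and Anxa6 with S100a11 did not (r = -0.68, adjusted permutation p = 0.125). Without the 2 libraries farthest from the median of the first gene of a pair, r stayed between 0.74 and 0.96 for the 6 pairs of S100a10, Anxa2, S100a11 and S100a6, was 0.82 for Hltf with Anxa6 and was -0.75 for Anxa6 with S100a11. In the 6 TRAP libraries numbered 1 to 6, r was 0.74 to 0.98 for the 6 pairs, and 1 of the 28 pairs passed, Anxa2 with Hltf (r = -0.87). So few libraries allow few permutations, and even a pair at r = 0.98 did not pass, so this count cannot show a loss of relations. Leaving out susceptible replicate 10 raised the count of pairs to 15.

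Ahnak was in none of these pairs. Its r was 0.36 with S100a10, 0.16 with Anxa2, 0.17 with S100a11, 0.17 with S100a6 and 0.50 with Hltf, with adjusted permutation p from 0.221 to 0.876 over its 7 pairs. Without resilient replicate 3 and susceptible replicate 4, the libraries farthest from its median, r was 0.62 with S100a10 and 0.65 with Anxa2. Among 15990 genes with a mean of at least 1 CPM in TRAP, S100a10 ranked at place 5248 and Anxa2 at place 6482 by likeness to Ahnak within stress groups. For Anxa2, in contrast, S100a6 ranked at place 2, S100a11 at 67 and S100a10 at 297. Anxa5 was in no pair either, with r from -0.12 to 0.42.

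**Figure D3:**
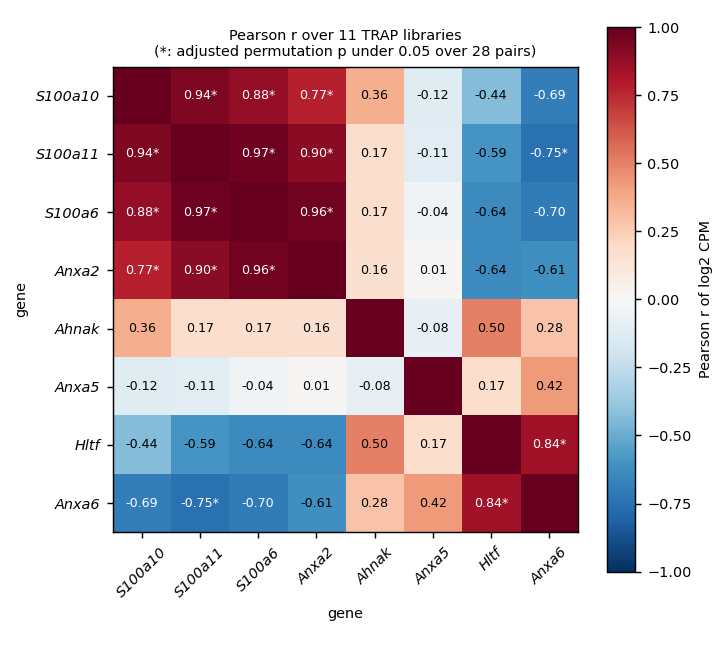
Pearson's r of log2 CPM for each pair of the 8 genes over 11 TRAP libraries, from -1 (blue) to 1 (red), with a star where the adjusted permutation p is under 0.05. The block of 6 starred pairs joins S100a10, S100a11, S100a6 and Anxa2 and leaves Ahnak and Anxa5 without a star.

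The genes nearest to each of the 8 were listed by r within stress groups. For Anxa2 they were Crip1 (r = 0.99), S100a6, the galectin gene Lgals3 (0.97), the cilium gene Cfap126 (0.97) and Gm16130 (0.97). For S100a6 they were Gm16130, Cfap126 and Ccdc33 (0.99 each), and for S100a11 Gm12854 (0.999), Odf3b (0.996) and Gm7665 (0.994), of which Odf3b encodes an outer dense fiber protein. For S100a10 they were Spaca9 (0.97), Gm7094 and the histone genes Hist1h4f, Hist1h2bl and Hist1h2bp (0.96 to 0.98). For Ahnak they were the lamin gene Lmnb1 (0.97), Nle1, Ldha-ps, Fstl5 and Ate1, none of them on the lists. Hltf was nearest to Topors, Map2k1 and Dgkb, Anxa6 to Faf1, Eno1b and Hif1a, and Anxa5 to Mbd4, Srsf2 and Etnk2. Ldha-ps, Eno1b, Gm7665 and the histone genes have near-identical copies, so the split of reads to them is uncertain. These r values describe 11 libraries that share depth and handling.

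Because genes of motile cilia stood among the nearest, 12 genes of the ependyma, the ciliated lining of the ventricles, were set beside the 8. Foxj1 and Ccdc153 were on the marker lists, and 10 were picked after the values were seen, so no test was made of them as a list. These 10 include Odf3b and Cfap126, which were listed above as nearest to S100a11, S100a6 or Anxa2. Their r with those genes is therefore high by selection. S100a11 followed the 12 genes at r = 0.63 to 0.99 (median 0.96), S100a6 at a median of 0.95, Anxa2 at 0.89 and S100a10 at 0.88. The median was 0.22 for Ahnak, -0.07 for Anxa5, -0.54 for Hltf and -0.69 for Anxa6. The whole list of 7 choroid plexus and ependyma markers, which holds Foxj1 and Ccdc153, gave a weaker relation for S100a10. With the mean log2 CPM of that list its r was 0.26 (adjusted permutation p = 0.715), and 0.03 with group means subtracted. By adjusted p of r, none of the 8 genes passed with that list. Between TRAP and input of non-defeated mice, 55% of all genes tested passed. Of the 7 choroid plexus and ependyma markers, 2 were higher in TRAP, Foxj1 and Ccdc153, and 2 lower (median log2 -1.13). Since 10 of the 12 ependymal genes were picked after the values were seen, their count is not a test. All 12 were higher in TRAP, from 1.96-fold for Tekt1 to 9.76-fold for Ccdc153 (edgeR adjusted p = 0.00263 and 1.02e-05), and none was at 0. Their summed level was 55.6 to 76.0 CPM in input, 162 to 410 in non-defeated, 201 to 422 in resilient and 322 to 448 in susceptible TRAP libraries, with non-defeated replicate 1, resilient replicate 3 and susceptible replicates 2 and 10 at the top.

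With the mean level of Foxj1 and Ccdc153 as a covariate in the 11 TRAP libraries, a fit added after the data were seen, the log2 fold change of S100a10 between susceptible and resilient mice was 0.36 (edgeR adjusted p = 0.245) in place of 0.59. That of S100a11 was 0.28 (edgeR adjusted p = 0.258), that of Anxa6 -0.24 and that of Anxa2 -0.09. In residuals on these 2 genes, S100a10 and S100a11 kept r = 0.90 (adjusted permutation p = 0.0098) and were the only pair past the threshold. Of the other 5 pairs of the 4 genes, r was 0.53 for Anxa2 with S100a6, 0.40 for S100a10 with S100a6, 0.26 for S100a11 with S100a6, -0.24 for S100a10 with Anxa2 and -0.37 for Anxa2 with S100a11. Beyond these values, the part of ependymal cells was not tested.

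**Figure D4:**
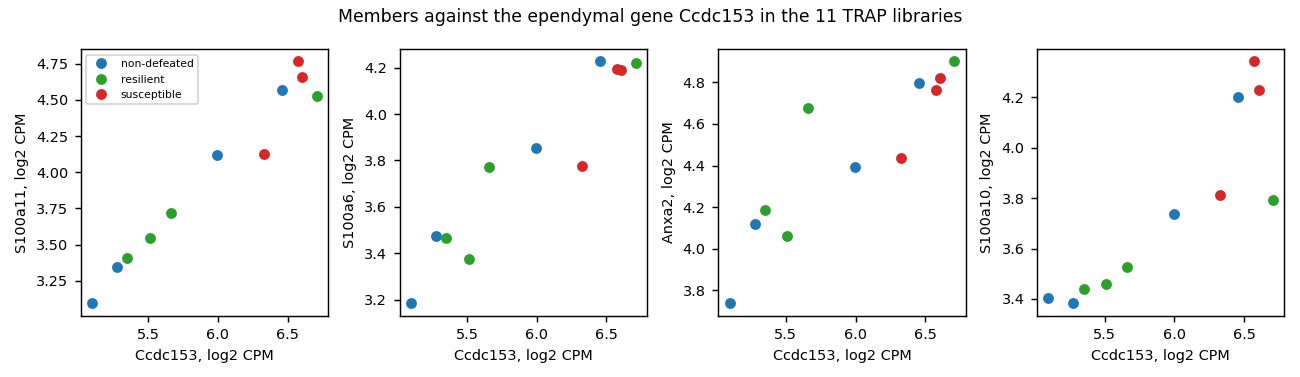
Log2 CPM of S100a11, S100a6, Anxa2 and S100a10 (vertical axes) against the ependymal gene Ccdc153 (horizontal axes, log2 CPM) in 11 TRAP libraries, colored by stress group. All 4 genes are high where Ccdc153 is high, and the 3 susceptible libraries lie in the upper part of the range of Ccdc153.

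The 8 genes were also set against 10 lists of cell markers, as the mean log2 CPM of each list, which makes 80 relations over the 11 TRAP libraries. At an adjusted permutation p under 0.05 there were 3, all of Hltf. Hltf followed excitatory neuron markers (r = 0.97, rho = 0.98, adjusted permutation p = 0.0008 for both), oligodendrocyte markers (r = 0.89, rho = 0.83, adjusted permutation p = 0.0056 and 0.0462) and astrocyte markers (r = 0.88, rho = 0.93, adjusted permutation p = 0.0221 and 0.0068). Without the 2 libraries farthest from the median these were 0.98, 0.85 and 0.83. With group means subtracted, 2 of the 80 relations passed, including Anxa6 with excitatory neuron markers, so at least 2 of these 3 of Hltf did not. With PV markers Hltf went the other way (r = -0.80, adjusted permutation p = 0.0634). Anxa6 had r = 0.79 with excitatory neuron markers and -0.78 with PV markers (adjusted permutation p = 0.0634 for both), and within stress groups its r with excitatory markers was 0.92 (adjusted permutation p = 0.0463). The 6 excitatory markers summed to 734 to 1290 CPM in TRAP libraries and 2160 to 2500 in input, and the 9 PV markers to 3360 to 4690 and 558 to 660.

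Ahnak had its closest relations with microglia (r = 0.76), oligodendrocyte (0.75), choroid plexus and ependyma (0.74) and astrocyte markers (0.71), none of which passed (adjusted permutation p = 0.0709, 0.0741, 0.0812 and 0.0964). Without the 2 libraries farthest from the median, r with choroid plexus markers was 0.24. Susceptible replicate 10, with the highest Ahnak, also had the highest microglia score. Microglia markers summed to 27.9 to 41.7 CPM in TRAP and 84.2 to 95.8 in input. Red blood cell markers, 5 genes none of which was at 0, were 890 to 1240 CPM in susceptible, 116 to 243 in non-defeated and 129 to 599 in resilient libraries. Within stress groups, which takes out the difference between groups, their r was -0.13 with S100a10 and -0.09 with S100a11. Across groups, red blood cell markers, S100a10 and S100a11 all had their highest TRAP mean in susceptible mice. The part of these cells in the values of the 8 genes was not tested.

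**Figure D5:**
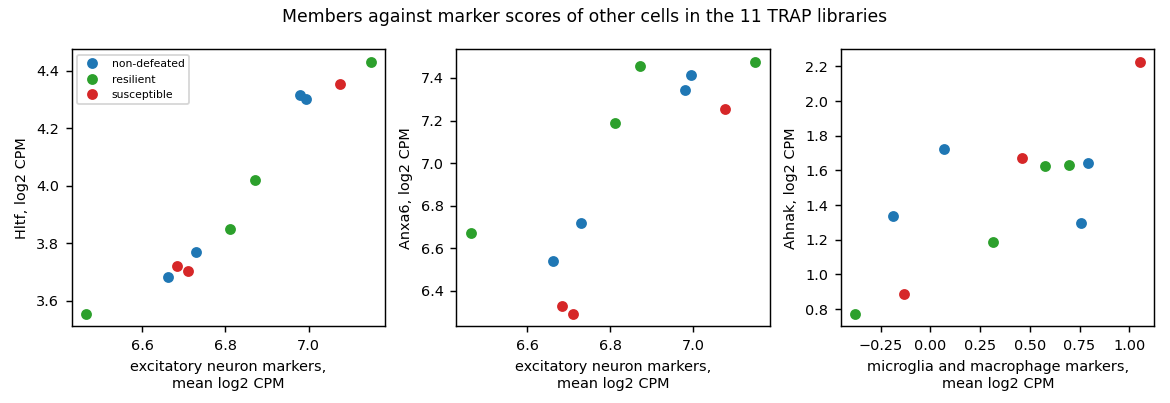
Log2 CPM of Hltf, Anxa6 and Ahnak (vertical axes) against the mean log2 CPM of excitatory neuron markers (left and middle) and of microglia and macrophage markers (right) in 11 TRAP libraries, colored by stress group. Hltf lies close to a line, Anxa6 follows more loosely, and 1 susceptible library is highest in both Ahnak and the microglia score.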

How the data were processed

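TRAP or input RNA of mouse hippocampus was sequenced in 14 libraries, which the labels placed in 4 groups. The authors deposited raw counts per gene, after trimming with fastp, alignment to mm10 with STAR (2.5.3a in the submitters' processing notes) and, per those notes, HTSeq. The annotation and the strand setting are not given in the sources used here, and the Nextera libraries do not mark strand. No column lacked a sample.

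Genes were named from release M21 of the GENCODE annotation, which matched 37607 of 39017 identifiers. The rest held 0.824% of counts. In R 4.3.3, edgeR 4.0.16 fitted all 14 libraries in 1 quasi-likelihood model with TMM factors and its default filter, which kept 21298 genes. P-values are 2-sided with Benjamini-Hochberg adjustment. Normalized CPM use TMM library sizes, and log2 CPM a prior count of 2. Limma 3.58.1 was loaded as part of edgeR. Correlations used 100000 resamples, and within groups all 3456 permutations. The study's methods name DESeq2 on 2 groups, which was run as an alternative (DESeq2 1.42.0). Further alternatives were RLE factors, other filters, the likelihood ratio test, fewer groups, covariates and leaving out each library. The covariate and residuals on Foxj1 and Ccdc153 were chosen after seeing the data. The edgeR and DESeq2 fits of susceptible against resilient mice and the permutation test of r were tried on simulated data, and the other steps were not.

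The 8 genes and the lists were chosen with earlier results of these data known. Named were all 8, per list and comparison the genes at an adjusted p under 0.05, at most 4 per direction by size of change, or otherwise the gene with the smallest unadjusted p if under 0.05, and the 3 or 5 genes most like each of the 8. S100 genes and markers beyond that were named after their values were seen. Promoter sequences came from RefSeq.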

Additional observations from a re-analysis of the deposited data

How the results depend on the processing

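Each library had a sample number of its own, so the numbers could not show whether input and TRAP libraries were paired. No paired analysis was made. The count of the 8 genes at an adjusted p under 0.05 was 4 between TRAP and input under every alternative run, and 0 between stress groups, except 1 between susceptible and resilient mice with DESeq2 (S100a10, adjusted p = 0.0217). At an unadjusted p under 0.05 (edgeR unless named), the count between susceptible and non-defeated mice was 1 and became 2 with no filter on low counts, 2 with the sample number and 2 with the endothelial and mural markers as covariate, and 0 with 2 groups only, with TRAP libraries only and with the Foxj1 and Ccdc153 covariate. Leaving out each library gave 0 to 4. Between susceptible and resilient mice it was 1 and became 3 with no filter, the likelihood ratio test, DESeq2, the sample number covariate and the endothelial and mural covariate, and 2 with 2 groups only and the Foxj1 and Ccdc153 covariate. Leaving out each library gave 1 to 4. Pairs of genes varying together numbered 8, and 11 with Spearman's rho, 1 in residuals on Foxj1 and Ccdc153, and 6 to 15 with each library left out. In libraries numbered 1 to 6 they numbered 1, where few permutations limit the pairs that can pass. Relations with marker scores numbered 3, 5 with Spearman's rho and 2 with group means subtracted.

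None of the log2 fold changes that reversed had passed the threshold. Anxa6 in TRAP against input was -0.004 with at least 10 counts in every library. Between resilient and non-defeated mice, the sample number covariate gave 0.046 for Hltf and -0.026 for S100a6, the endothelial and mural covariate 0.284 for S100a11, and the Foxj1 and Ccdc153 covariate 0.008 for Hltf and -0.065 for S100a6. Between susceptible and non-defeated mice, the sample number covariate gave 0.004 for Hltf, the endothelial and mural covariate -0.03 for Anxa5, and the Foxj1 and Ccdc153 covariate 0.191 for Hltf, 0.022 for Anxa6 and -0.029 for S100a6. Between susceptible and resilient mice, the last covariate gave -0.086 for Anxa2 and 0.183 for Hltf. Leaving out 1 library reversed 27 log2 fold changes of the 8 genes and kept 205. The reversed ones belong to values that ranged, in TRAP against input, from -0.182 to 0.019 for Hltf and -0.121 to 0.16 for Anxa6. In resilient against non-defeated mice they ranged from -0.263 to 0.044 for S100a10, -0.226 to 0.075 for Hltf, -0.338 to 0.28 for S100a11 and -0.192 to 0.216 for S100a6. In susceptible against non-defeated mice they ranged from -0.181 to 0.465 for Ahnak, -0.336 to 0.024 for Hltf and -0.104 to 0.133 for Anxa5, and in susceptible against resilient mice from -0.013 to 0.633 for Ahnak, -0.288 to 0.138 for Hltf and -0.249 to 0.027 for Anxa5. Reversed r were -0.236 (S100a10 with Anxa2) and -0.366 (Anxa2 with S100a11) in residuals, and -0.184 for Ahnak with Anxa2 in libraries numbered 1 to 6, where leaving out 1 library gave -0.062 to 0.488 over all 11. The cause was not tested. With 3 or 4 libraries a group, the 95% intervals of stress differences ran from -0.13 to 0.42 at their narrowest (Anxa5, resilient against non-defeated mice) and from -0.05 to 1.34 among the widest (S100a11, susceptible against non-defeated mice).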
